A study of Drosophila melanogaster with 6 samples.

Results

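The genes described here are Drosophila genes known by an annotation number alone (CG plus digits) whose transcripts were lower in ovaries of stwl bam double mutants than in ovaries of bam mutants. A gene was taken if its lowest intensity in bam was at least 100 and at least 1.3 times its highest intensity in stwl bam, after each array had been rescaled to one trimmed mean of 250. The rule found 93 genes among 5209 genes with a CG-only symbol and 11983 genes in all. The genes were chosen by these same intensities, all 6 arrays included, so their differences between genotypes are given as a description and carry no test.

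Transcript levels were measured on 6 one-colour oligonucleotide arrays hybridised with biotin-labelled RNA from ovaries of Drosophila melanogaster females. The double mutants, labelled stwl bam, gave 3 samples, and the single mutants, labelled bam[delta86], gave the other 3. Both genotypes are mutant for bam, so no wild-type ovary enters the comparison, and the alleles of the double mutants are not named in the labels. The labels give ovary as the source of the total RNA while the series text speaks of its germ cells, and they name no age. The stwl probe set had 74.8, 86.5 and 52.3 in stwl bam, against 86.3, 84.1 and 65.4 in bam, so the genotypes overlapped and this transcript does not check the labels. The bam probe set had 384, 175 and 287 in stwl bam, against 99.2, 103 and 99.0 in bam. In such bulk samples, fewer cells of a type and less RNA per cell cannot be told apart.

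A CG number is the name that the Drosophila genome annotation gives to a predicted gene, and a gene keeps it as its symbol until a mutant, a function or an orthologue provides another. Such genes are known mainly by sequence: many carry a recognisable protein domain, but few have a described phenotype. The bam gene drives the daughters of germline stem cells into differentiation, and in its absence the ovary accumulates cells that resemble the stem cells. Stonewall, the product of stwl, associates with chromatin and is required for germline stem cells to persist.

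Of the CG-only genes, 1.79% met the rule, compared with 4.69% of the 6774 genes with another symbol and 3.43% of all genes. Many CG-only genes were dim in these ovaries, and 1842 of them reached an intensity of 100 on every bam array. Among these, 5.05% met the rule, against 7.78% of the 4086 genes with another symbol that reached the same level. The mirrored rule, with stwl bam at least 1.3 times bam, was met by 153 CG-only genes, which is 2.94% of them, and by 237 genes with another symbol, which is 3.5%. Over all genes it was met by 3.25%. Among genes that reached 100 on every stwl bam array, the mirrored shares were 8.26% of CG-only genes, 5.85% of genes with another symbol and 6.61% of all genes. With this scaling, CG-only genes were counted more often on the higher side. With intensities as deposited, where bam replicate 1 has a lower scale, the CG-only counts were 60 lower and 164 higher.

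Control ratios that serve as a check of RNA quality differed between the genotypes, and the cause of this difference was not tested. For the actin control, the 5′ probe set over the 3′ probe set gave a ratio between 0.524 and 0.675 in stwl bam and between 0.129 and 0.183 in bam. For eIF-4a it lay between 0.417 and 0.448 in stwl bam and between 0.0798 and 0.108 in bam, and for GAPDH between 0.258 and 0.374 in stwl bam and between 0.124 and 0.152 in bam. Marker genes showed germ cells in all samples. The summed intensity of 7 measured germ cell genes was 6611 to 7239 in stwl bam and 7709 to 8320 in bam. Of the 7, tud and AGO3 averaged higher in stwl bam and the others lower. The largest difference in means was that of ovo, with 1313 in stwl bam and 2325 in bam. The sum of 5 measured markers of ovarian somatic cells was 1150.0 to 1223 in stwl bam and 1743 to 2104 in bam. Of the 5, 1 met the rule: eya, with means of 531 in stwl bam and 1159 in bam. The stwl bam and bam means were 387 and 500 for cas, but 174 and 121 for tj. They were 39.5 and 40.6 for ptc and 54.8 and 51.3 for hh. The 6 haemocyte markers summed to 2006 to 2401 in stwl bam and 3342 to 3744 in bam, with 4 of them past the rule. Hml and NimC1 did not meet it, and their arrays overlapped between the genotypes. The stwl bam and bam means were 509 and 663 for Hml and 476 and 500 for NimC1. The 4 measured muscle genes summed to 9420.2 to 12701 in stwl bam and 3281 to 4290.4 in bam. The 4 fat body genes summed to 1332 to 3706 in stwl bam and 564 to 1125 in bam, but did not move together. While apolpp and Obp99c met the mirrored rule, Lsp2 and Fbp1 averaged 228 and 63.0 in stwl bam, against 345 and 76.6 in bam. The 5 yolk and eggshell genes differed most within a genotype, at 8316 to 48977 in stwl bam and 33158 to 37072 in bam. The 5 testis genes summed to 114 to 177 in stwl bam and 132 to 166 in bam, with Mst87F and dj below background on all arrays. The part of RNA quality, of these cell types and of their markers in the values below was not tested.

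The transcripts of the 93 genes covered a wide range of abundance. Their mean bam intensity ran from 109 to 10539 with a median of 474, beside a median of 370.1 for the 1749 other CG-only genes that reached 100 on every bam array. It was under 200 for 13 genes, between 200 and 500 for 38, between 500 and 1000 for 23 and at least 1000 for 19. In stwl bam their mean intensity ran from 50.9 to 3745 with a median of 265. The stwl bam mean was between 17.6% and 72.4% of the bam mean, with a median of 57.6%, where the other 1749 genes had a median of 103%. The means differed at least 2-fold for 31 genes, by 1.5 to 2-fold for 57 and by less than 1.5-fold for 5. No stwl bam array put any of the 93 genes below its background, the 95th percentile of 44 control probe sets, so these differences are not bounds. The median coefficient of variation was 11.7% over the stwl bam arrays and 7.79% over the bam arrays. For the other 1749 genes it was 10.9% over the stwl bam arrays and 8.74% over the bam arrays.

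**Figure D1:**
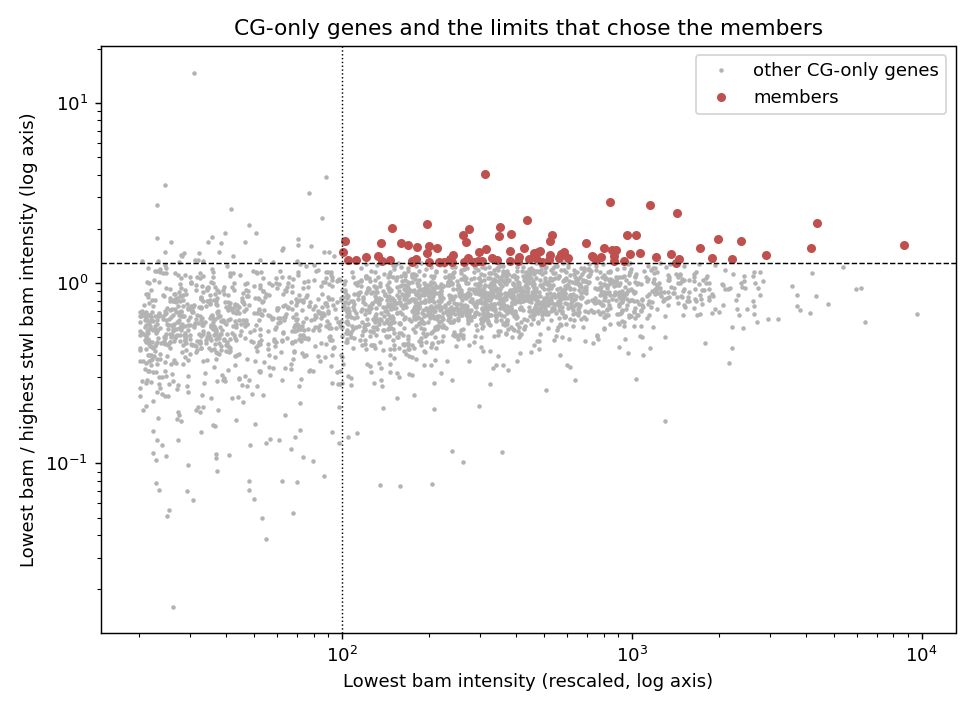
Each point is a CG-only gene with a lowest bam intensity of at least 20 (2706 genes); the horizontal axis is the lowest rescaled bam intensity and the vertical axis the ratio of that value to the highest stwl bam intensity, both on log axes. The dashed and dotted lines are the limits of 1.3 and 100, and the 93 red points beyond both are the genes described here.

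Fitted across all genes with limma, 91 of the 93 genes were lower at an adjusted p under 0.05, which is 97.8%, where 13.1% of the 8764 genes tested and 8.35% of the CG-only genes tested were called lower and 11.2% of all were called higher. That contrast is the one the rule used, so nothing is read from this count. It was 60 with median scaling and 74 without bam replicate 1, the lowest over single arrays left out. The 2 genes not called were CG10126 and CG34376. The median difference of the 93 genes was -0.78 on the log2 scale, beside -0.01 for all genes tested and 0.04 for the CG-only genes tested.

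The widest gap between the genotypes was that of CG43394, for which no function is given here. Its intensities were 41.6, 49.0 and 77.6 in stwl bam, against 311, 327 and 318 in bam, so that the highest stwl bam array reached 77.6 and the lowest bam array 311. The stwl bam mean was 17.6% of the bam mean, a difference of -2.39 ± 0.22 (SE) on the log2 scale. These values are of the chosen probe set, and the second probe set of CG43394, given below, overlapped between the genotypes. CG6040 followed with intensities of 255, 300.4 and 248 in stwl bam, against 883, 842 and 927 in bam. Its arrays within each genotype were close together, and its stwl bam mean was 30.3% of the bam mean. CG5973, which encodes a protein with a CRAL-TRIO lipid-binding domain, had intensities of 425, 398 and 379 in stwl bam, against 1252, 1156 and 1255 in bam. The log2 differences were -1.70 ± 0.11 for CG6040 and -1.59 ± 0.09 for CG5973.

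Several more genes kept a wide gap on all arrays. CG6282 had intensities of 118, 185 and 194 in stwl bam, against 493, 434 and 502 in bam. The ABC transporter gene CG31793 had 92.6, 70.6 and 85.4 in stwl bam, against 196, 220.4 and 225 in bam, and both genes stayed clear of overlap by more than the spread within a genotype. CG8066, which encodes a cystatin-like protease inhibitor, had 107, 149.6 and 172 in stwl bam, against 369, 351 and 367 in bam. CG30440 had 87.3, 137 and 85.9 in stwl bam, against 339.6, 274 and 298 in bam. In these 4 genes the stwl bam mean was 34.8%, 38.7%, 39.4% and 34.0% of the bam mean.

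A further group of genes without a function given here was lower by a similar measure. CG13029 had intensities of 175, 162 and 204 in stwl bam, against 439, 404 and 383 in bam, and CG16896 had 134, 140.4 and 141 in stwl bam, against 262, 313 and 294 in bam. The stwl bam arrays of CG16896 lay closer together than those of any other of the 25 genes with the largest ratio. CG32091 had 274, 289 and 233 in stwl bam, against 559, 531 and 646 in bam. CG5674 had 234, 306 and 237 in stwl bam, against 763, 524 and 524 in bam, with bam replicate 1 above the other bam arrays. CG9297 had 94.5, 99.9 and 158 in stwl bam, against 305, 269 and 284 in bam. The stwl bam means of these 5 genes lay between 41.1% and 47.8% of their bam means.

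Some members of the group were dim in stwl bam. CG2841 averaged 57.0 ± 33.1 in stwl bam and 206 ± 69.7 in bam (SD, n = 3 each), with stwl bam replicate 2 and bam replicate 3 above the other arrays of their genotype. CG15382 had 54.2, 60.4 and 42.3 in stwl bam, against 108, 103 and 116 in bam, close to the level limit. CG1941, of the diacylglycerol acyltransferase family, had 45.8, 81.5 and 48.5 in stwl bam, against 137, 203 and 165 in bam. The log2 differences of the 3 genes were -1.79 ± 0.36, -0.96 ± 0.21 and -1.43 ± 0.25, and adding an offset before taking log2 understates such differences for dim genes.

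**Figure D2:**
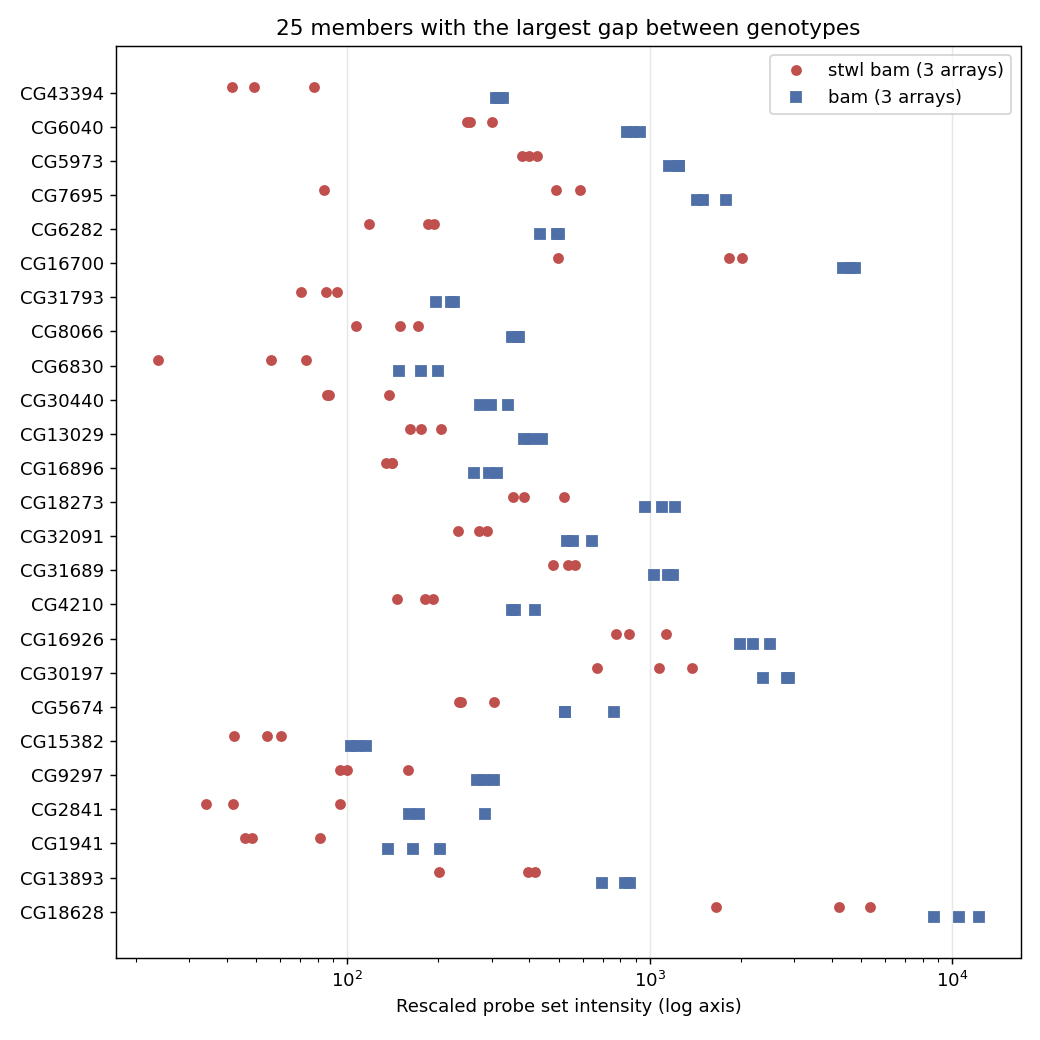
Rescaled intensities on a log axis for the 25 genes with the largest ratio of lowest bam to highest stwl bam intensity, from CG43394 at the top to CG18628 at the bottom. Red circles are the 3 stwl bam arrays and blue squares the 3 bam arrays of each gene; in every row the circles lie left of the squares, as the rule requires, and CG7695 and CG16700 have 1 circle far to the left of the other circles.

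For 32 of the 93 genes a protein family or function is stated here, and the other 61 are given by number only. This grouping was made after the values had been seen, orders the description and was not compared with other genes. Membrane transporters made up 10 of the 32. Their stwl bam means ran from 31.6% to 62.7% of the bam means, with a median of 52.9%. The amino acid transporter family gene CG16700 had the largest difference among them and is described with the array pattern below. CG31689, an ABC transporter gene of the G subfamily, had intensities of 535, 565 and 478 in stwl bam, against 1038, 1154 and 1196 in bam. The monocarboxylate transporter family gene CG13907 had 513, 439 and 481 in stwl bam, against 1077, 896 and 806 in bam, and the organic cation transporter family gene CG6006 had 697, 659 and 872 in stwl bam, against 1604, 1213 and 1699 in bam. In these 3 genes the ratio of lowest bam to highest stwl bam intensity, which the rule set to at least 1.3, was 1.84, 1.57 and 1.39. Their stwl bam means were 46.6%, 51.6% and 49.3% of the bam means.

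The other 5 transporter genes had ratios of lowest bam to highest stwl bam intensity of up to 1.58, against 1.39 for CG6006 and 1.57 for CG13907. CG12194, of the major facilitator superfamily, had intensities of 91.7, 105 and 115 in stwl bam, against 207, 182 and 185 in bam. CG6293, of the nucleobase and ascorbate transporter family, had 202, 173 and 179.7 in stwl bam, against 313, 323 and 316 in bam, with bam arrays close together. CG7806, also an ABC transporter gene, had 338, 284 and 291 in stwl bam, against 511, 490.4 and 468 in bam. CG14511, of the nucleotide sugar transporter family, had 98.6, 103 and 80.5 in stwl bam, against 143, 189 and 137 in bam. CG10413, of the cation chloride cotransporter family, lay just inside the ratio limit with 825, 974 and 1096 in stwl bam, against 1583, 1425 and 1612 in bam.

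Genes of lipid handling were 4, and their stwl bam means were 32.8% to 46.9% of their bam means. CG5973 and CG1941 are given above. CG13893, a gene for a SEC14-like protein, had intensities of 201, 397 and 417 in stwl bam, against 828, 695 and 859.8 in bam, with stwl bam replicate 1 apart from the other 2 stwl bam arrays. CG2736, of the CD36 family of scavenger receptors, had 334, 491 and 728 in stwl bam, against 1069, 1116 and 1124 in bam, where the 3 bam arrays differed by little and the 3 stwl bam arrays by more than 2-fold.

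Enzymes and inhibitors were 7, with stwl bam means of 29.2% to 70.0% of bam. CG4210, a GNAT acetyltransferase gene, had intensities of 146, 192 and 181 in stwl bam, against 349.8, 358 and 416 in bam, and the M1 aminopeptidase gene CG31445 had 97.5, 79.2 and 105 in stwl bam, against 169.6, 175 and 288 in bam. CG1486, of the pyridoxal phosphate-dependent decarboxylase family, had 530.2, 515 and 564 in stwl bam, against 1010.4, 810.2 and 786 in bam. The 5′-nucleotidase gene CG11883 had 119, 132 and 101 in stwl bam, against 190.4, 175 and 213 in bam. The smallest difference among the 7 was that of CG8460, which encodes a glycosyl hydrolase domain protein, at 662, 711 and 628 in stwl bam, against 962, 943 and 954 in bam. Its groups were separated by more than the spread of either genotype despite the modest difference.

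Genes that act on RNA and ribosomes were 6, and their differences were small and alike: the stwl bam means lay between 58.2% and 70.7% of the bam means, with a median of 66.1%. CG8939, the orthologue of the yeast ribosomal RNA methyltransferase Spb1, had intensities of 428, 526 and 458 in stwl bam, against 734, 923 and 772 in bam. CG8545, the orthologue of the nucleolar methyltransferase NOP2, had 654, 598 and 582 in stwl bam, against 989, 933 and 872 in bam. CG32344, a DEAD-box helicase gene, had 375, 376 and 409 in stwl bam, against 562, 576 and 605 in bam. In yeast, Spb1 and the orthologue of NOP2 act in the making of the large ribosomal subunit. CG11414, the orthologue of the ubiquitin ligase ZNF598 that in mammals marks collided ribosomes, had 518, 511 and 455 in stwl bam, against 732, 812 and 773 in bam. CG8777, orthologue of the yeast exosome cofactor subunit Ski3, had 235, 244 and 255 in stwl bam, against 369.8, 344 and 383 in bam, and the RNA-binding protein gene CG4887 had 270.5, 264 and 288 in stwl bam, against 384, 398 and 380.4 in bam. All 6 transcripts were of middling abundance, with bam means from 365 to 931.

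Of 3 signalling genes, CG10126 is given below. CG4041, with a TBC domain typical of Rab GTPase regulators, had intensities of 182, 170.1 and 201 in stwl bam, against 336, 334 and 263 in bam, and the PP2C phosphatase gene CG17598 had 371, 375 and 302 in stwl bam, against 549.9, 542 and 489 in bam. The F-box protein gene CG2247 had 439, 389 and 383 in stwl bam, against 635, 601 and 648 in bam, and CG16974, a leucine-rich repeat protein gene, had 681, 661 and 661 in stwl bam, against 1038, 987 and 1043 in bam. For CG16974 the stwl bam arrays spread far less than the gap between the genotypes.

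**Figure D3:**
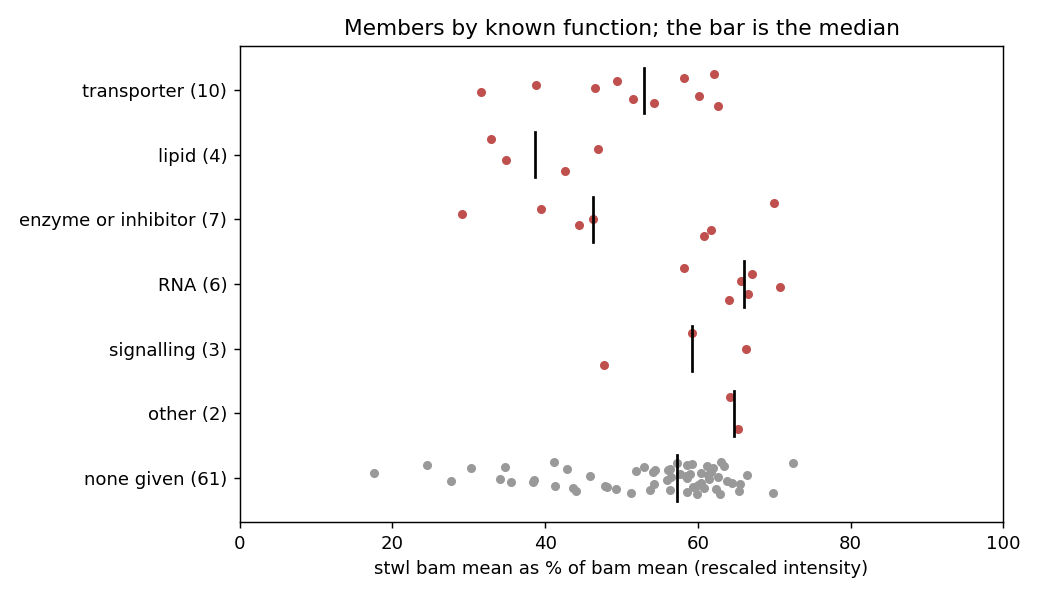
Mean stwl bam intensity as a percentage of mean bam intensity for each of the 93 genes, in rows by known function with the number of genes in parentheses; the black bar is the median of a row. The 4 lipid genes lie between 32.8% and 46.9% and the 6 genes acting on RNA between 58.2% and 70.7%.

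In 5 genes the intensity on stwl bam replicate 1 was at most 0.5 of that on either other stwl bam array. They were 5.38% of the 93 genes, and 14 of the 1749 other CG-only genes that reached 100 on every bam array, 0.8%, had that pattern. Over all 5209 CG-only genes, many of them dim, the share was 12.5%. Of the 318 genes with another symbol that met the rule it was 0.943%. CG7695, of no function given here, had intensities of 83.9, 488 and 590.3 in stwl bam, against 1437, 1504 and 1789 in bam. The 3 stwl bam arrays held 5.32%, 31.0% and 37.4% of its bam mean. CG16700, the amino acid transporter family gene, had 496, 2023 and 1826 in stwl bam, against 4599.6, 4782 and 4350.3 in bam, or 10.8%, 44.2% and 39.9% of its bam mean on the stwl bam arrays. CG18628 was among the most abundant CG-only transcripts, with 1653, 4242 and 5339 in stwl bam, against 8731, 10574 and 12312 in bam. Its stwl bam arrays held 15.7%, 40.3% and 50.7% of the bam mean. The EF-hand protein gene CG10126 had 376, 1645 and 1249 in stwl bam, against 2235, 2393 and 2227 in bam, and the ecdysteroid kinase-like gene CG6830 had 23.6, 55.8 and 73.2 in stwl bam, against 176, 199 and 149 in bam.

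These 5 genes were picked for a low stwl bam replicate 1. Leaving that array out therefore had to shrink their differences, and nothing is read from the change. With all arrays the log2 differences were -2.39 ± 0.58 (SE) for CG7695, -1.89 ± 0.44 for CG16700, -1.73 ± 0.33 for CG6830, -1.64 ± 0.37 for CG18628 and -1.31 ± 0.44 for CG10126. Without stwl bam replicate 1 they were -1.53, -1.25, -1.33, -1.13 and -0.67 in the same order of genes. Markers of yolk and eggshell also varied most between the stwl bam arrays: the vitelline membrane gene Vm26Aa had 87.6, 14547 and 1539 in stwl bam, against 9243, 9847 and 10195 in bam, and the yolk protein gene Yp1 had 3109.5, 10508 and 3857 in stwl bam, against 8161, 9006 and 10395 in bam. Like the 5 genes, both markers were lowest on stwl bam replicate 1. On replicate 3 the linear intensities of both markers, and of Yp2, Yp3 and Cp36, lay closer to replicate 1 than to replicate 2. For Vm26Aa this holds on the linear scale only, and on the log2 scale its replicate 3 lay closer to replicate 2. In the 5 genes replicate 3 lay closer to replicate 2. Vm26Aa and Yp1 were highest on stwl bam replicate 2, as were CG16700 and CG10126. CG7695, CG18628 and CG6830 were highest among the stwl bam arrays on replicate 3. Whether egg chamber content has a part in the 5 genes' values was not tested.

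**Figure D4:**
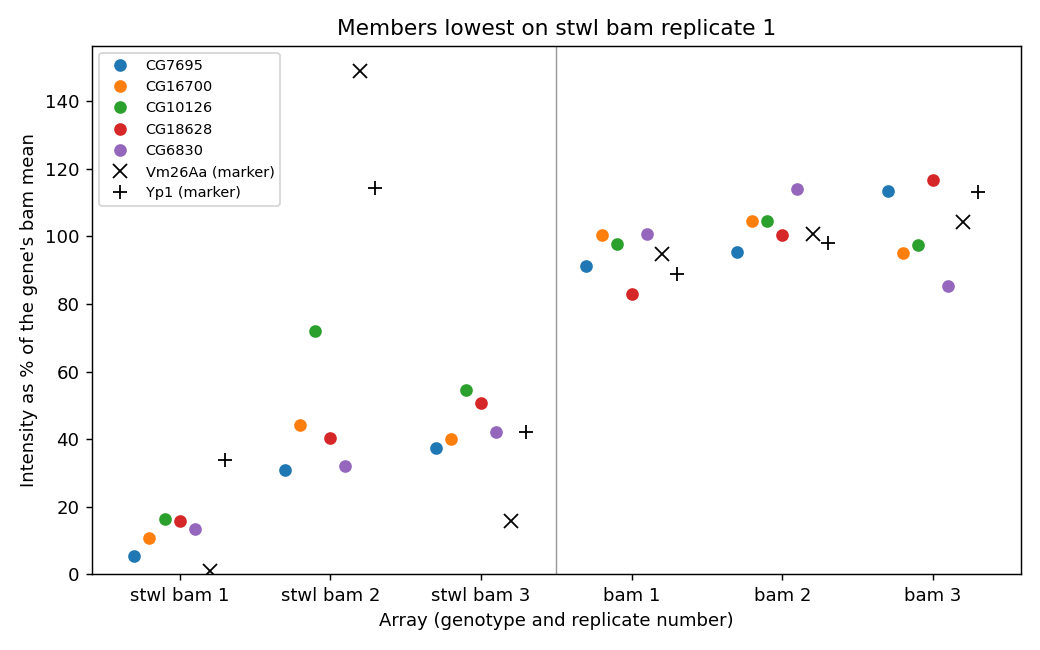
Intensity on each array as a percentage of the gene's own bam mean, for the 5 genes that were lowest on stwl bam replicate 1 (coloured circles) and for the markers Vm26Aa and Yp1 (black crosses). The 5 genes lie between 5.32% and 16.4% on stwl bam replicate 1 and between 31.0% and 72.0% on the other stwl bam arrays, while Vm26Aa and Yp1 exceed 100% on stwl bam replicate 2.

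The rule required every stwl bam array to lie below every bam array, so which array was lowest is given as a description. The lowest stwl bam value came from replicate 1 for 33 genes (35.5%), from replicate 2 for 26 (28.0%) and from replicate 3 for 34 (36.6%). Among the 1749 other CG-only genes these shares were 46.2%, 29.6% and 24.2%. The lowest bam value, on which the rule turned, came from replicate 1 for 28 (30.1%), replicate 2 for 40 (43.0%) and replicate 3 for 25 (26.9%). Among the 1749 others these shares were 37.45%, 32.5% and 30.1%. The median ratio of highest to lowest array was 1.25 within stwl bam and 1.16 within bam. A spread of at least 2-fold among the stwl bam arrays was seen in 9 of the 93 genes, which is 9.68%, against 4.8% of the 1749 others.

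The most abundant transcripts of the group ranked among the brightest CG-only genes in bam ovaries. CG18628 ranked 2 of 5209 by mean bam intensity, CG16700 ranked 9, CG3662 ranked 12 and CG44085 ranked 19. CG3662 had intensities of 2649.6, 2672 and 2329.7 in stwl bam, against 4159, 4282 and 4840.4 in bam, and CG44085 had 2041, 1719 and 1820.5 in stwl bam, against 3676, 3714 and 2907 in bam. Both were lower on all stwl bam arrays, as the rule required, with means of 57.6% and 54.2% of bam. For CG44085 this holds for the chosen probe set, while its other probe set, given below, was higher in stwl bam. CG30197 had 670.0, 1075 and 1384 in stwl bam, against 2375, 2851 and 2884 in bam, and CG16926 had 1136, 775 and 855 in stwl bam, against 2194, 1992 and 2503 in bam. CG31705 had 1147, 1371 and 1173 in stwl bam, against 1962, 1886 and 2042 in bam, and CG32486 had 1083, 1091 and 971 in stwl bam, against 1768, 1719 and 1898 in bam. The last pair had narrow groups, with stwl bam means of 62.7% and 58.4% of bam.

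The genes spanned more of the genome than most CG-only genes. By the RefSeq gene table of the Release 6 assembly, which the array files do not name, the median span was 4581 bases, with 2090.5 bases for 1746 other CG-only genes at the same level and 1676 for the CG-only genes that were higher in stwl bam. Spans over 10 kb were found for 22 of the 93, which is 23.7%, against 8.08% of the 1746. The shortest gene was CG18628 with 397 bases and the longest CG1677 with 124709 bases, whose intensities were 1067, 931 and 781 in stwl bam, against 1751, 1455 and 1471 in bam. Spans under 1 kb were found for 8 genes, among them the abundant CG18628, CG7695 with 758 bases and CG30197 with 963 bases. The 316 placed genes with another symbol that met the same rule had a median span of 7111 bases, so a long span was not particular to CG-only symbols.

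The share of CG-only genes that met the rule was larger for genes of 4 kb and more than for shorter genes. Among genes that reached 100 on every bam array it was 3.38% of 237 genes under 1 kb, 1.79% of 615 between 1 and 2 kb and 4.06% of 517 between 2 and 4 kb. It was 9.92% of 262 genes between 4 and 8 kb, 11.3% of 124 between 8 and 16 kb and 15.5% of 84 above 16 kb. For genes with another symbol the shares in the same classes were 1.94%, 1.17%, 4.82%, 12.5%, 13.3% and 18.8%. The median stwl bam level as a percentage of bam was 105%, 109%, 97.7%, 88.2%, 85.9% and 82.1% in the same classes of CG-only genes. Span is that of the gene with its introns, not of the transcript. The 5′ to 3′ control ratios given above also differed between the genotypes, and their part in the relation to span was not tested.

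**Figure D5:**
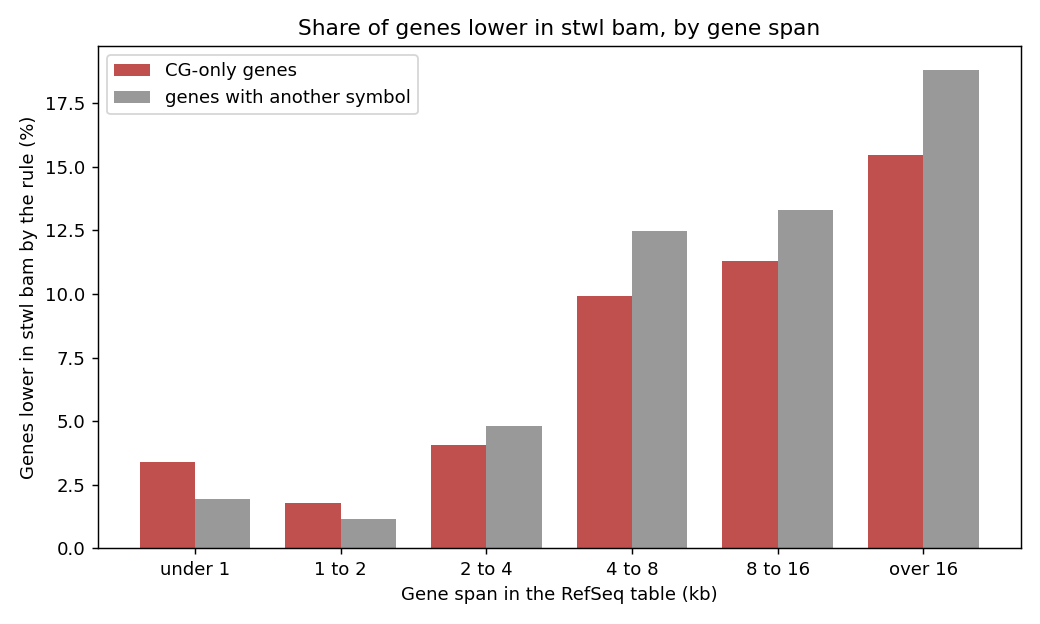
Percentage of genes that met the rule, lower in stwl bam, in 6 classes of gene span in kb; only genes with an intensity of at least 100 on every bam array are counted. Red bars are CG-only genes and grey bars genes with another symbol; both are lowest between 1 and 2 kb (1.79% and 1.17%) and highest above 16 kb (15.5% and 18.8%).

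All 93 genes are protein coding in the RefSeq table and lie on the major chromosome arms. There were 18 on the X, 22 on 2L, 21 on 2R, 12 on 3L and 20 on 3R. As shares these were 19.4% on the X, 23.7% on 2L, 22.6% on 2R, 12.9% on 3L and 21.5% on 3R, beside 18.2%, 17.1%, 19.1%, 19.5% and 25.7% of the 1746 other CG-only genes at that level. None lay on chromosome 4, where 8 of those 1746 genes lie. The higher CG-only genes held a larger share on the X, 42 of 151 or 27.8%. A single annotated transcript was listed for 34 of the 93 genes, 36.6% compared with 44.2% of the others.

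None of the genes had another of the 93 as its direct neighbour in the order of protein-coding genes. Some lay 1 gene apart: CG34134 and CG8460 flank CG8475, CG10462 and CG10631 flank Nf-YB, and CG16974 and CG16972 flank Edem2. Of 167 distinct measured genes that flank the 93, none was itself one of them. The 93 are a small part of the 11983 genes, so nothing is read from that. Of the 167 neighbours, 100 reached an intensity of 100 on every bam array. Of those, 5 met the rule, which is 5% where 6.93% of all genes of that level did. The 5 were ttv, aop, Bruce, vap and Nox, all with other symbols. The spans of aop and Nox overlap those of their neighbours CG15382 and CG8060. The repressor gene aop had intensities of 773, 598 and 535 in stwl bam, against 1311, 1196 and 1323 in bam, and the NADPH oxidase gene Nox had 26.5, 51.0 and 53.8 in stwl bam, against 120.3, 139 and 136 in bam. CG8060 had 83.1, 79.7 and 57.8 in stwl bam, against 112, 136 and 129 in bam. The median stwl bam level of the 100 neighbours was 93.6% of bam, and that of all genes of that level 96.9%. Another 6 neighbours met the mirrored rule, 3.59% of the 167, where 3.25% of all genes did.

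For 9 of the 93 genes the array held more than 1 probe set, and the one with the highest mean was used. In CG5850 the second probe set was also lower and also met the ratio limit, with 94.8, 123 and 87.8 in stwl bam, against 163, 212 and 216 in bam. In CG43394, which the gene table lists with the older model names CG31607 and CG31900, the second probe set had 174, 88.1 and 117 in stwl bam, against 144, 129 and 189 in bam, so its genotypes overlapped. In CG18273 and CG44085 the second probe set was higher in stwl bam. The chosen probe set of CG18273 had 354, 522 and 384 in stwl bam, against 963, 1095 and 1217 in bam, and its other one had 278, 269.7 and 316 in stwl bam, against 123, 169 and 169.9 in bam. The other probe set of CG44085 had 107, 113 and 151 in stwl bam, against 38.7, 46.1 and 63.0 in bam. Which transcripts these probe sets cover was not analysed here. In CG31689 the other probe set was below background on all arrays. Each other probe set of CG31038, CG3655, CG6006 and CG34376 was below background on at least 1 stwl bam array. Of the chosen probe sets 10 have names ending in _s_at, which marks probes that may match several transcripts or genes, among them those of CG5973, CG6282, CG31689 and CG2841.

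The limits of the rule cut through a continuous range. Just inside the ratio limit lay CG10413, CG1463 and CG1233, of which CG1463 had intensities of 112, 117 and 135 in stwl bam, against 175, 313 and 249 in bam and CG1233 had 148, 172 and 158 in stwl bam, against 271, 236 and 225 in bam. Just outside it lay CG7139 with 668, 663 and 544 in stwl bam, against 1033, 867 and 888 in bam, then CG2246 and CG12877. Just inside the level limit lay CG5282 with 66.3, 48.3 and 68.1 in stwl bam, against 102, 101 and 133 in bam, then CG15382 and CG34376, the last with 71.8, 77.9 and 75.1 in stwl bam, against 121, 105 and 113 in bam. Just outside it lay CG18586, CG15547 and CG31974. CG18586 had 14.3, 22.6 and 10.5 in stwl bam, against 97.9, 117 and 87.9 in bam, with a stwl bam mean of 15.6% of bam, below that of any of the 93 genes, but 2 of its bam arrays stayed under 100 and 2 of its stwl bam arrays were below background.

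Some CG-only genes had low stwl bam means, but arrays that overlapped or lay too close for the ratio limit. There were 16 at the level limit with a stwl bam mean at or below the 57.6% that was the median of the 93. The lowest was CG11892 with 35.5, 489 and 159.8 in stwl bam, against 829, 522 and 834 in bam, followed by CG5326 with 42.7, 742 and 63.6 in stwl bam, against 1032, 549.6 and 538 in bam. In both, stwl bam replicate 2 was far above replicates 1 and 3, as it was for the yolk and vitelline membrane markers. In all, 352 of the 1749 other CG-only genes had every stwl bam array below every bam array by less than the limit of 1.3.

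The gene table's synonyms name a cDNA clone for 13 of the 93 genes, and the clone's prefix names a library it was sequenced from. That is 14.0% of them, beside 12.7% of the 1749 other CG-only genes. The clones came from adult head (GH) for 5 genes, 5.38% against 2.23% of the others, and from the S2 cell line (SD) for 4, 4.30% against 1.09%. They came from embryo (RE) for 3, 3.23% against 3.37%, and from adult testis (AT) for 1, CG13029, 1.08% against 1.32%. Another adult head library (RH) had clones for none of the 93 genes and 2.23% of the others. A further embryo library (LD) had clones for none of the 93 genes and 1.72% of the others. These counts are too small to compare, and the ovary library (GM) had clones for none of the 93 genes and 0.858% of the others. A clone shows one tissue in which a transcript was found and does not limit it to that tissue.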

How the data were processed

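The authors deposited linear intensities, 1 per probe set and array, and per the submitters' processing notes the software was GCOS. Its version and settings were not found in the labels. The 2% to 98% trimmed mean was 250.0 on 5 arrays and 220.5 on bam replicate 1, so each array was rescaled to 250. Of 18952 probe sets, 13647 were paired with 1 gene, and 13544 of these took a current symbol through gene numbers. All 93 members matched the RefSeq table of Release 6, and no coordinates are printed because the array files name no assembly. The probe set with the highest mean stood for a gene.

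The members, function groups and lists were chosen with earlier results of these data known. Named are the 25 genes with the largest ratio, the 10 brightest, those nearest the limits, with the shortest or longest span or with several probe sets, and genes of known function. CG8060, which overlaps a lower neighbour, CG5850 and other members whose probe sets do not disagree were named after their values were seen. The designed rule also asked for the longest and shortest protein, for which gene span was used because protein lengths were not used here.

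Background over all genes came from limma 3.58.1 in R 4.3.3 (lmFit, eBayes with trend) on log2 of rescaled intensity plus 7.9, the 25th percentile of deposited intensities, two-sided, with Benjamini-Hochberg adjustment over 11477 probe sets that reached the 40th percentile of their array on at least 3 arrays. It was tested on simulated data. Replicate numbers come from the labels, which do not say that samples came from separate flies, so the spread may be technical. No pair of arrays held identical values. With 3 arrays per genotype the number of arrays limits the precision. Alternatives changed the normalization, limits, probe set rule, offset, filter and replicate block, and left out each array in turn.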

Additional observations from a re-analysis of the deposited data

How the results depend on the processing

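The number of members depends on the scale and the limits. The 93 genes became 60 with intensities as deposited, all of them among the 93, and 54 with median scaling, 39 of them shared. They became 160 with a ratio of at least 1.2, 38 with a ratio of at least 1.5 and 148 in a replicate block, where each stwl bam array is set against the bam array of the same number. Quantile normalization gave 96, of which 88 were shared, a lowest bam of at least 50 or 200 gave 108 or 74, and the probe set rules 85 and 93. Leaving out single arrays, so that fewer arrays had to be separated, gave 115 to 141, the highest without stwl bam replicate 1. For CG-only genes on the higher side, 153 became 72 with median scaling and 167 to 211 without single arrays. For other symbols on the lower side, 318 became 154 with median scaling, 495 in the replicate block, 516 without stwl bam replicate 1, and 373 to 516 over all single arrays left out.

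Median scaling moved the median log2 difference of all genes from -0.01 to -0.14, and that of the members from -0.78 to -0.92. In limma it lowered the calls to 510 lower and 326 higher genes, 836 in all, from 1148 and 983, 2131 in all. The calls without single arrays ran from 593 to 1180 lower, 549 to 953 higher and 1142 to 2133 in all: they dropped over 1.5 times without stwl bam replicate 3 (717 lower), bam replicate 1 (593) and bam replicate 3 (705). The same-numbered samples correlated at -0.06, 0.01 and -0.04 in their deviations, so the numbers were not taken as pairs, and the replicate block gave 1036 lower and 866 higher genes. The log2 differences of the 61 named members under 9 alternatives, 549 values, were negative. The rule set every bam array to at least 1.3 times every stwl bam array. Leaving out an array could therefore not change the sign, and nothing is read from it. Of the 549 values, 29 moved by more than the pooled SD. Apart from the counts given here, the causes of these shifts were not tested.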
